A study of Homo sapiens with 12 samples.

Results

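Extracellular vesicles (EV) shed by cardiac progenitor cells, CPC-EV, were compared with EV from the stage before and the stages after it in 1 differentiation series. The CPC-EV libraries were taken by their group label, and they were 3 of the 12 small RNA libraries. All 12 came from the established human induced pluripotent stem cell line IMR90-4, whose cells were turned into cardiomyocytes with CHIR99021, Activin A and ascorbic acid, followed by the Wnt inhibitor IWR1. The other groups, with 3 libraries each, were hiPSC-EV from the undifferentiated cells at day 0, CMi-EV from immature cardiomyocytes at day 15 and CMm-EV from cardiomyocytes at day 35 after metabolic maturation.

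The groups differed in more than the stage. hiPSC-EV were collected over 24 h in TeSR-E8 from cells on a surface. CPC-EV were collected at day 6 over 72 h in RPMI with B27 minus insulin and IWR-1, also from a monolayer. CMi-EV were collected over 48 h in RPMI with B27 from 3D aggregates, and CMm-EV over 48 h from aggregates in a glucose-free medium with galactose and fatty acids. Stage, day, medium, collection time and culture format cannot be told apart, and all groups carry the genome of 1 line. A lower level of an RNA in the EV and fewer EV from the cells that make it cannot be told apart either.

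The sum of miRNA counts was 1539043 to 3380608 in the CPC-EV libraries, within the range of 703415 to 6272455 over all 12. The CPC-EV libraries held 733045 to 1313888 counts on gencode transcripts, which cover mRNA, long non-coding RNA and structured small RNA, against 307229 to 1908089 in hiPSC-EV, 218887 to 499442 in CMi-EV and 131183 to 322043 in CMm-EV. The later groups thus held fewer gencode counts than CPC-EV in every library. The libraries held 104569 to 421796 counts on tRNA, 38530 to 798700 on piRNA and 11526 to 38108 on circular RNA.

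EV carry mostly fragments and small RNA from the cell that sheds them. A miRNA guides the silencing complex to mRNA through its seed, bases 2 to 8 of the mature strand, so miRNA with the same seed can bind the same sites. Cardiac progenitors come from mesoderm that has left pluripotency and does not yet beat. The miR-302/367 family marks pluripotent cells, whereas miR-1, miR-133 and miR-499 mark heart muscle, and a progenitor stage lies between both programs.

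The label was checked against transcripts that define cardiac progenitors, given as raw counts. ISL1 and NKX2-5, transcription factors of the early heart, were at 0 in all 12 libraries. MESP1, the factor of the earliest cardiac mesoderm, had 3 counts in 1 hiPSC-EV library and was otherwise at 0. GATA4, a cardiac and endodermal transcription factor, had 0, 0 and 0 counts in hiPSC-EV, 47, 83 and 25 in CPC-EV, 15, 60 and 43 in CMi-EV and 0, 7 and 9 in CMm-EV. HAND1, a factor of the first heart field and the extraembryonic mesoderm, had 61, 168 and 0 counts in CPC-EV and 1 count in all other libraries together. HAND2, its partner in the second heart field, had 40, 270 and 40 counts in CPC-EV, none in hiPSC-EV, 0, 0 and 1 in CMi-EV and 73, 54 and 16 in CMm-EV. PDGFRA, a receptor of cardiac mesoderm, had 32, 50 and 16 counts in CPC-EV, none in hiPSC-EV or CMm-EV and 42, 32 and 0 in CMi-EV. TBX5, a further cardiac factor, had 53, 0 and 0 counts in CPC-EV and 2 in all other libraries together. MEF2C and TBX20, of heart muscle development, were not seen mainly in CPC-EV: MEF2C had 1, 56 and 1 counts there and 63, 31 and 11 in CMi-EV, and TBX20 had 0, 0 and 27 in CPC-EV, 0, 44 and 30 in CMi-EV and 16, 0 and 22 in CMm-EV. GATA6, from the same list, had 94, 185 and 1 counts in CPC-EV and none in hiPSC-EV. It had 0, 25 and 0 in CMi-EV and 10, 35 and 21 in CMm-EV. KDR, a receptor of vascular and cardiac progenitors, had 0, 52 and 0 counts in CPC-EV and 20, 40 and 55 in hiPSC-EV. In the later groups KDR had none in CMi-EV and 0, 0 and 57 in CMm-EV. The listed markers together took 0.0150 to 0.0658% of gencode counts in CPC-EV, at most 0.00684% in hiPSC-EV, 0.0269 to 0.0393% in CMi-EV and 0.0298 to 0.0755% in CMm-EV, so CPC-EV lay above hiPSC-EV and overlapped both later groups, and the defining pair ISL1 and NKX2-5 was not seen. The authors reported increased GATA4 and ISL1 expression in the progenitor cells themselves, which counts of fragments in EV do not measure. Of 7 tested features of the marker list 2 were called higher in CPC-EV by the test described next, against 26.3% of all tested gencode features. Both passed the filter on low counts through CPC-EV alone, and of the 5 that passed it in another group none was higher. Transcripts of cardiomyocyte markers took 0.113 to 0.196% in CPC-EV, at most 0.0101% in hiPSC-EV, 1.25 to 1.47% in CMi-EV and 0.758 to 2.05% in CMm-EV. The CPC-EV libraries thus sat between hiPSC-EV and CMi-EV on the cardiomyocyte markers. Transcripts of pluripotency markers took 0.0395 to 0.0659% in CPC-EV, 0.0545 to 0.0840% in hiPSC-EV, at most 0.0157% in CMi-EV and at most 0.00559% in CMm-EV. On the pluripotency markers CPC-EV overlapped hiPSC-EV and lay above both later groups.

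CPC-EV were compared with the mean of the 3 other group means by edgeR's quasi-likelihood test. A feature was called at a Benjamini-Hochberg adjusted p of 0.05 or less and a log2 difference of at least 1 in size. A stricter call required the same against each other group. A further description, with no test, was whether all 3 CPC-EV libraries lay above or below all 9 others. Levels are CPM, the counts scaled to a total of 1e6 in the RNA class, after TMM scaling, a scaling that lines up the bulk of features between libraries.

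The mature sequences of the 20 miRNA on which the comparison turned, with the seed in capitals, are given with their hairpin or mature position in GRCh38.p14, credited to RefSeq. Of the 367 miRNA tested, 322 matched a RefSeq mature sequence and these held 265 distinct seeds. The first 11 were called higher in CPC-EV, with every CPC-EV library above all others, and 6 of them (miR-654-3p, miR-127-3p, miR-370-3p, miR-1247-5p, miR-489-3p and miR-1908-3p) passed the filter on low counts through CPC-EV alone.
miR-146b-5p: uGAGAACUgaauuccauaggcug
miR-375-3p: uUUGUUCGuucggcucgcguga
miR-200b-3p: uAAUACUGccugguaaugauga
miR-654-3p: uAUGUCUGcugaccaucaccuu
miR-127-3p: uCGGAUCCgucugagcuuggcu
miR-370-3p: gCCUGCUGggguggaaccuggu
miR-1247-5p: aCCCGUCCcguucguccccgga
miR-489-3p: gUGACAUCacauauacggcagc
miR-1263: aUGGUACCcuggcauacugagu
miR-1908-3p: cCGGCCGCcggcuccgccccg
miR-7706: uGAAGCGCcugugcucugccgaga
The other 9 were called lower in CPC-EV, with every CPC-EV library below all others after TMM scaling. Without TMM scaling some of them, such as miR-1271-5p and miR-504-5p, overlapped other libraries. With library size alone the calls of miR-378i, miR-30e-5p, miR-30c-5p, miR-1271-5p and miR-504-5p were lost.
miR-21-5p: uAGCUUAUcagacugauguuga
miR-378a-3p: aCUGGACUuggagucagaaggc
miR-378i: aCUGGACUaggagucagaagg
miR-30a-5p: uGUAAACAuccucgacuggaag
miR-30e-5p: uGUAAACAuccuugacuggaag
miR-30c-5p: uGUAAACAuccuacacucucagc
miR-181a-5p: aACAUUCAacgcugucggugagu
miR-1271-5p: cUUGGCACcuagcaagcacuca
miR-504-5p: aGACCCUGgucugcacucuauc

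The hairpin of miR-146b lies at chr10:102436512-102436584 on the plus strand outside annotated host genes, as do those of miR-375 (chr2:219001645-219001708, minus strand), miR-200b (chr1:1167104-1167198, plus strand), miR-1263 (chr3:164171471-164171556, minus strand) and miR-654 (chr14:101040219-101040299, plus strand). miR-489 lies in an intron of CALCR (chr7:93483936-93484019, minus strand), miR-1908 in an exon of FADS1 (chr11:61815161-61815240, minus strand) and miR-7706 in an exon of AKAP13 (chr15:85380596-85380662, plus strand). Of the miRNA that were lower, miR-21 lies in an exon of VMP1 (chr17:59841266-59841337, plus strand), miR-378a in an intron of PPARGC1B (chr5:149732825-149732890, plus strand), miR-30e (chr1:40754355-40754446) and a copy of miR-30c (chr1:40757284-40757372) in introns of NFYC on the plus strand, and miR-30a (chr6:71403551-71403621) with the other copy of miR-30c (chr6:71376960-71377031) in LINC00472 on the minus strand. miR-378i lies in an exon of TNFRSF13C (chr22:41923222-41923297, minus strand), miR-504 in an intron of FGF13 (chrX:138667711-138667793, minus strand), and miR-181a has copies in introns of MIR181A1HG (chr1:198859044-198859153, minus strand) and MIR181A2HG (chr9:124692442-124692551, plus strand).

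Among 367 tested miRNA, 52 exceeded the mean of the other groups in CPC-EV (14.2%) and 39 lay under it (10.6%) by the first call. Of the tested miRNA 18 passed the filter in CPC-EV alone, 7 of the 52 among them, and of the 349 that passed in another group 45 were higher (12.9%). Most of the higher ones were not highest in CPC-EV: 31 of the 52 peaked in hiPSC-EV, 19 in CPC-EV and 2 in CMi-EV. CPC-EV held the highest group mean for 13.6% of all tested miRNA. Of the 39 lower miRNA, 27 had their lowest group mean in CPC-EV, against 24.3% of all tested. The stricter call against each other group left 1 miRNA higher (0.272%) and 3 lower (0.817%). All 3 CPC-EV libraries lay above all 9 others for 13 miRNA (3.54%) and below for 12 (3.27%), and 11 and 10 of these were also called. The count of 39 lower was 24 without the last hiPSC-EV library and 21 without the second CPC-EV library. The split of 52 higher and 39 lower depended on the scaling, since it was 91 and 24 with library size alone and 68 and 28 with totals over all 5 RNA classes. The median log2 difference of all tested miRNA was 0.15 in the main scaling and 0.94 and 0.56 in these others.

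**Figure D1:**
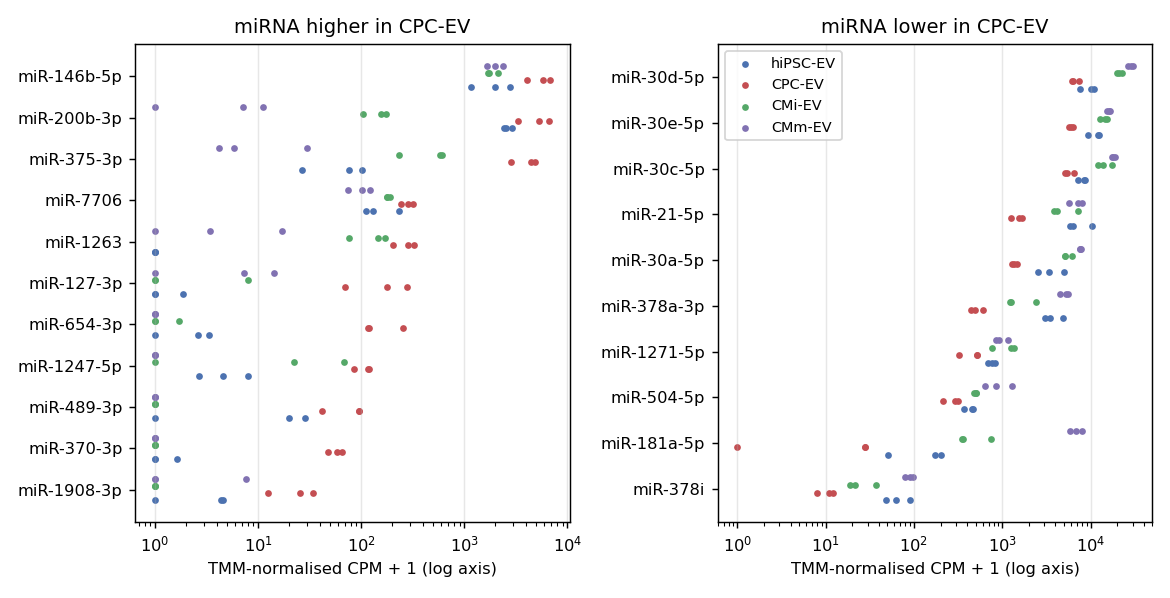
Level of each miRNA that was called and whose 3 CPC-EV libraries lay above (11 miRNA) or below (10 miRNA) all 9 other libraries, as TMM-scaled CPM plus 1 on a log axis, 1 point per library coloured by group. The 3 CPC-EV points of miR-146b-5p lie between 4082 and 6832 CPM and those of miR-21-5p between 1252 and 1689 CPM, outside the span of the other libraries.

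miR-146b-5p, a miRNA known to act on innate immune signalling, was the one called higher than each other group. Its level was 5855, 6832 and 4082 CPM in CPC-EV, 1160, 1969 and 2764 in hiPSC-EV, 1756, 1717 and 2136 in CMi-EV and 1678, 1974 and 2372 in CMm-EV. The other groups were close to each other and CPC-EV alone stood above them. The mean was 5590 ± 1394 CPM (SD, n = 3) in CPC-EV against group means of 1964, 1870 and 2008. The log2 difference was 1.52 (SE 0.25, edgeR adjusted p = 0.000641), and the smallest of the 3 differences to single groups was 1.48, with an adjusted p of 0.0462 for the stricter call. The call against the mean held under all 8 other scalings, filters and fits and in 12 of 12 cases without each library in turn. The stricter call was near its limit. It was lost with edgeR's filterByExpr, with a replicate block and with a filter on the mean level (added after seeing the data). It was also lost in 8 of 12 cases without a library. These left out the second hiPSC-EV library, the first or second CPC-EV library, any CMi-EV library, or the first or second CMm-EV library. miR-146a-5p has the same seed, and its log2 difference of -1.63 was not called.

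miR-375-3p, a miRNA of endoderm and pancreatic islets, also peaked in CPC-EV. It was at 4423, 4838 and 2834 CPM in CPC-EV, 25.5, 102 and 74.8 in hiPSC-EV, 576, 603 and 233 in CMi-EV and 4.86, 3.18 and 29.2 in CMm-EV. All CPC-EV libraries lay above all others. The log2 difference to the mean was 5.76 (SE 0.59, edgeR adjusted p = 1.99e-05). The nearest group was CMi-EV with a log2 difference of 3.10, and the stricter call was missed at an adjusted p of 0.0919.

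miR-200b-3p, which keeps cells epithelial by silencing ZEB factors, was at 5263, 6711 and 3358 CPM in CPC-EV, 2557, 2419 and 2922 in hiPSC-EV, 172, 155 and 104 in CMi-EV and 6.07, 0 and 10.3 in CMm-EV. CPC-EV lay above all others, but the log2 difference to hiPSC-EV was 0.96 (edgeR adjusted p = 0.435). Against CMi-EV and CMm-EV it was 5.15 and 9.93. miR-200c-3p has the same seed and is made from another locus. It was at 549, 593 and 199 CPM in CPC-EV, 1514, 1848 and 2576 in hiPSC-EV, 57.8, 45.7 and 44.9 in CMi-EV and 1.21, 0 and 0 in CMm-EV. miR-200c-3p thus had its top in hiPSC-EV, whereas miR-200b-3p had its top in CPC-EV.

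The imprinted region at 14q32 held 4 of the miRNA that were higher and above all libraries. This region is transcribed as a long non-coding RNA precursor from the maternal copy and holds a large miRNA cluster. Of 6 tested miRNA on the list of the region, 3 were higher and none lower, against 14.2 and 10.6% of all tested miRNA. The other 3 were the strands of miR-342 and miR-345, which lie before DLK1, with log2 differences of -0.50, -0.53 and -0.43. The 3 that were higher passed the filter through CPC-EV alone, so their calls were in part set by it, and none of the 3 that passed in another group was called. Without the last CPC-EV library 9 miRNA of the list were higher. The 3 and the miRNA that follow them in this region were named after their values were seen. miR-654-3p was at 118, 256 and 116 CPM in CPC-EV, 0, 1.59 and 2.34 in hiPSC-EV, 0, 0 and 0.724 in CMi-EV and 0 in every CMm-EV library. CPC-EV stood apart from all others, at least 44.9-fold higher than CMm-EV when 3 counts per library are taken as the limit of a count of 0 (edgeR adjusted p = 0.000257). miR-370-3p was at 57.2, 64 and 47.2 CPM in CPC-EV, 0, 0 and 0.64 in hiPSC-EV and 0 in every CMi-EV and CMm-EV library (edgeR adjusted p = 0.00112). That put it at least 25.8-fold above CMi-EV and 15.4-fold above CMm-EV. miR-127-3p, antisense to the imprinted gene RTL1, was at 175, 276 and 68.4 CPM in CPC-EV, 0, 0 and 0.853 in hiPSC-EV, 7.05, 0 and 0 in CMi-EV and 13.4, 0 and 6.31 in CMm-EV. Its log2 difference was 6.52 (SE 1.49, edgeR adjusted p = 0.0054).

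miR-1247-5p lies at the far end of the region in an exon of DIO3OS (chr14:101560287-101560422, minus strand). It was at 83.6, 116 and 119 CPM in CPC-EV, 6.97, 3.58 and 1.71 in hiPSC-EV, 21.2, 0 and 66.6 in CMi-EV and 0 in every CMm-EV library. CPC-EV lay above all others, but CMi-EV varied and its log2 difference of 1.86 was not called (edgeR adjusted p = 0.485). miR-127 lies in an exon of MIR493HG (chr14:100882979-100883075, plus strand) and miR-370-3p in introns of MEG8 and MIR493HG (chr14:100911186-100911207, plus strand).

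Between the start of DLK1 at chr14 position 100725705 and the end of DIO3 at 101563452, 31 miRNA had a count in any library, a set chosen after the values of its members were seen. Most were too low for the test, and 4 passed the filter. CPC-EV had the highest group mean for 26 of the 31, and 16 of them were at 0 in all 9 other libraries. Neither number is read against a share of all miRNA with a count. The 13.6% of tested miRNA highest in CPC-EV does not cover the members too low for the test. Only 13 of the 31 had a count in more than a single CPC-EV library. The summed counts were 1642, 4373 and 1058 in CPC-EV, 35, 55 and 62 in hiPSC-EV, 65, 0 and 174 in CMi-EV and 12, 0 and 16 in CMm-EV. As CPM of the unscaled miRNA counts that was 977, 1294 and 687 in CPC-EV, and no other library passed 127. Without the 3 most abundant members, miR-127-3p, miR-654-3p and miR-1247-5p, the CPC-EV libraries held 392.2, 519.1 and 156.6 CPM and no other library passed 59.4. That remainder still held the called miR-370-3p, with 534 counts over the CPC-EV libraries and 3 in hiPSC-EV. It is thus not free of members picked by their values. miR-494-3p had 240 counts and miR-485-3p 186 counts over the CPC-EV libraries and none elsewhere. The number of members detected was 15, 22 and 6 in the CPC-EV libraries, so fewer were seen in the last of these. Members went the other way too: miR-382-5p had 28 counts in hiPSC-EV and 0 in CPC-EV, and miR-487b-3p had 36 counts, all in CMi-EV.

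**Figure D2:**
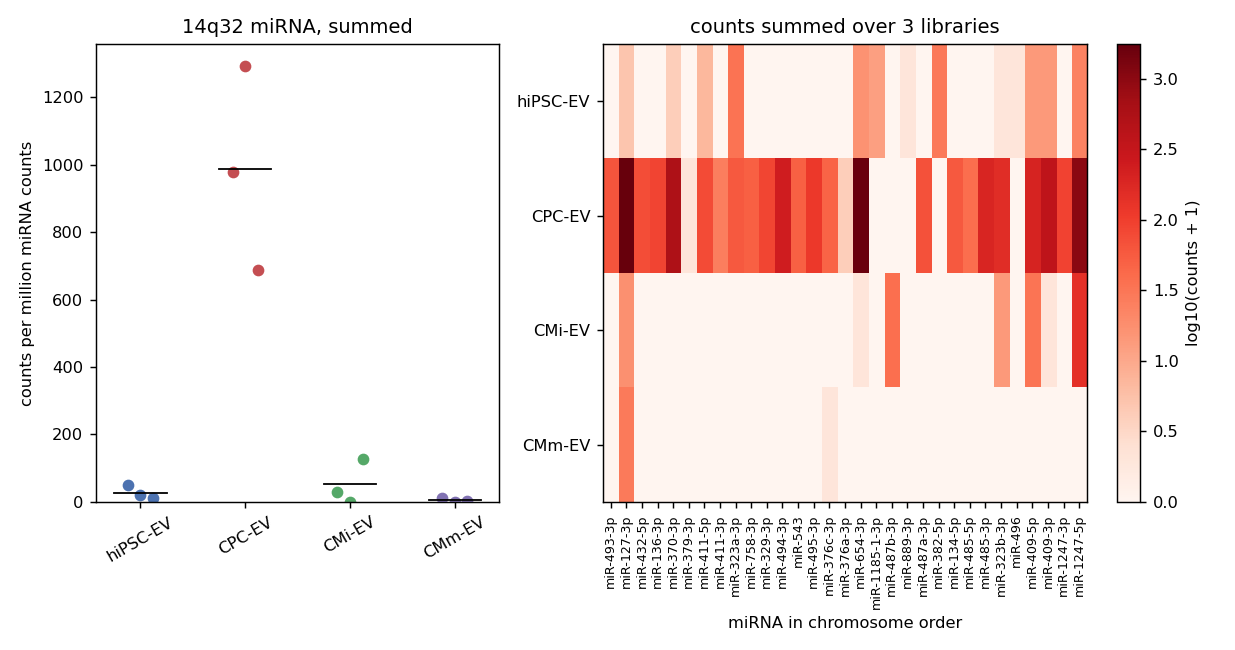
The 31 miRNA between DLK1 and DIO3 with a count in any library. Left, their summed counts as CPM of the miRNA counts in each library, with a line at the group mean. Right, log10 of the counts plus 1 summed over the 3 libraries of each group, with the miRNA in chromosome order. The CPC-EV libraries lie at 687 to 1294 CPM and all others at 127 or less.

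The long non-coding RNA of the same region did not have this pattern. MEG3, the imprinted transcript at the start of the cluster, was at 57.3, 48.1 and 63.5 CPM of gencode counts in CPC-EV, 111, 102 and 11.8 in hiPSC-EV, 235, 75 and 123 in CMi-EV and 453, 335 and 399 in CMm-EV. Its log2 difference of -1.52 was not called (edgeR adjusted p = 0.165), and CPC-EV overlapped hiPSC-EV. MEG3 in CMm-EV lay above every other library.

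The other called miRNA above all libraries were named after their values were seen. miR-1263 was at 284, 327 and 201 CPM in CPC-EV, 0 in every hiPSC-EV library, 170, 145 and 76.1 in CMi-EV and 2.43, 0 and 16.2 in CMm-EV. It was at least 77.7-fold above hiPSC-EV and did not pass against CMi-EV, with a log2 difference of 1.05 (edgeR adjusted p = 0.661). miR-489-3p was at 93.6, 94 and 40.5 CPM in CPC-EV, 0, 27.4 and 18.8 in hiPSC-EV and 0 in all later libraries, at least 20.9-fold above CMm-EV. miR-1908-3p was at 24.6, 11.4 and 33.1 CPM in CPC-EV and at most 6.7 elsewhere. The call of miR-1908-3p held under 4 of 7 other scalings, filters and fits, being lost with no filter, filterByExpr and DESeq2, and it was lost without any one of the hiPSC-EV libraries. miR-7706 was at 285, 315 and 244 CPM in CPC-EV and 74.1 to 230 elsewhere, with a log2 difference of 1.00 (SE 0.36, edgeR adjusted p = 0.0489). The last of these 4 was at the edge of both call limits, and its call held in 6 of 12 cases without each library in turn. The call of miR-7706 was also lost with no filter and with a replicate block. miR-484 and miR-3130-3p also lay above all libraries and were not called.

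Of the 3 miRNA lower than each other group, miR-21-5p is one of the most widespread miRNA of differentiated and proliferating cells. Its level was 1689, 1554 and 1252 CPM in CPC-EV, 5816, 6284 and 10244 in hiPSC-EV, 3805, 4210 and 7178 in CMi-EV and 5671, 7165 and 7994 in CMm-EV. Every other library lay above the highest CPC-EV library. The log2 difference was -2.09 (SE 0.24, edgeR adjusted p = 0.000206), and it was -2.31 against hiPSC-EV, -1.76 against CMi-EV and -2.21 against CMm-EV, with an adjusted p of 0.0207 for the stricter call. The stricter call left no lower miRNA with library size as the only scaling, with filterByExpr, and without the first or second CPC-EV library or the last CMi-EV library, and 1 without the last CPC-EV library, so the stricter calls of miR-21-5p, miR-378a-3p and miR-30a-5p rest on these choices.

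miR-378a-3p is made from an intron of PPARGC1B, a coactivator of mitochondrial genes, and is known for its part in energy metabolism. It was at 438, 606 and 494 CPM in CPC-EV, 3011, 3472 and 4928 in hiPSC-EV, 1231, 1257 and 2426 in CMi-EV and 5318, 4500 and 5484 in CMm-EV. The level dipped in CPC-EV below all other libraries and CMi-EV held the next lowest values. The log2 difference was -2.63 (SE 0.24, edgeR adjusted p = 5.26e-05), with an adjusted p of 0.0207 against each group. miR-378i shares its seed and was at 6.91, 11.2 and 10 CPM in CPC-EV and 17.6 to 95.8 elsewhere, a log2 difference of -2.48 (SE 0.64, edgeR adjusted p = 0.0304). The mature strands are near identical, so reads of the abundant miR-378a-3p could be shared with miR-378i. The call of miR-378i held under 5 of 8 other scalings, filters and fits. It was lost with library size alone, with totals of all 5 classes, with no filter and with a replicate block. Without each library in turn it held in 6 of 12 cases.

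The miR-30 family is abundant in heart and other differentiated tissues. Of 8 tested members 5 were lower and none higher, against 10.6% of all tested miRNA, and 7 of the 8 had their lowest group mean in CPC-EV, against 24.3%, with a median log2 difference of -1.28 against 0.15 for all tested miRNA. miR-30a-5p passed against each group. It was at 1364, 1482 and 1294 CPM in CPC-EV, 2509, 3354 and 4978 in hiPSC-EV, 5075, 5161 and 6185 in CMi-EV and 7729, 7587 and 7583 in CMm-EV. The order from CPC-EV through hiPSC-EV and CMi-EV to CMm-EV had no overlap between neighbours. Its log2 difference was -1.95 (SE 0.19, edgeR adjusted p = 6.04e-05).

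miR-30d-5p, the most abundant member, was at 6260, 7334 and 6233 CPM in CPC-EV, 7515, 10114 and 11066 in hiPSC-EV, 20697, 22586 and 20086 in CMi-EV and 29950, 26763 and 28571 in CMm-EV. After TMM scaling CPC-EV lay below all others, with hiPSC-EV next, and the log2 difference was -1.44 (SE 0.15, edgeR adjusted p = 7.11e-05). Without that scaling miR-30d-5p in CPC-EV overlapped hiPSC-EV. The whole family took 2.69 to 3.33% of miRNA counts in CPC-EV, 3.24 to 3.51% in hiPSC-EV and at least 3.56% later. By that share too CPC-EV and hiPSC-EV overlapped. miR-30e-5p was at 5967, 6336 and 5687 CPM in CPC-EV and 9326 to 16391 elsewhere, a log2 difference of -1.19 (SE 0.14, edgeR adjusted p = 0.000172). miR-30c-5p was at 5360, 6498 and 5150 CPM in CPC-EV and 7190 to 18993 elsewhere, a log2 difference of -1.18 (SE 0.15, edgeR adjusted p = 0.000281). miR-30b-5p, with a log2 difference of -1.56, was the called member that overlapped hiPSC-EV. The calls of miR-30e-5p and miR-30c-5p lie close to the limit of 1 and held under 3 of 8 other scalings, filters and fits, being lost with RLE scaling, library size alone, totals of all 5 classes, no filter and DESeq2. They were also lost without the last of the 3 CPC-EV libraries, which left 3 of 8 members lower. With library size as the only scaling 1 of 8 was lower, and the log2 difference of miR-30d-5p was -0.69.

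miR-181a-5p, a miRNA of lymphoid and muscle differentiation, was at 0, 26.8 and 27.1 CPM in CPC-EV, 49.9, 171 and 199 in hiPSC-EV, 351, 355 and 746 in CMi-EV and 7955, 6756 and 5878 in CMm-EV. CPC-EV lay below all others and CMm-EV far above. The log2 difference was -5.42 (SE 0.77, edgeR adjusted p = 0.00309). Of 5 tested miR-181 strands 3 were lower, against 10.6% of all tested miRNA, and 4 had their lowest mean in CPC-EV, against 24.3%. miR-1271-5p was at 522, 319 and 516 CPM in CPC-EV and 689 to 1358 elsewhere. miR-504-5p was at 213, 293 and 312 CPM in CPC-EV and 372 to 1294 elsewhere. Their log2 differences of -1.06 and -1.09 passed at edgeR adjusted p-values of 0.012 and 0.0141. These 2 calls held under 2 of 8 other scalings, filters and fits, and without each library in turn they held in 4 and 6 of 12 cases.

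Some of the miRNA below all libraries shared a seed. The seeds given here were named with the calls of their members known, so they are no test of a shared seed. Of all tested miRNA 10.6% were lower, 3.27% lay below all other libraries, 14.2% were higher and 13.6% had their highest mean in CPC-EV. The 3 matched miRNA with the seed GUAAACA, miR-30a, miR-30c and miR-30e, were all lower and, after TMM scaling, below all other libraries. So were both with CUGGACU, miR-378a-3p and miR-378i. The family members miR-30b-5p and miR-30d-5p had no sequence here and are not among the 3, and miR-30b-5p overlapped hiPSC-EV. The 3 matched miRNA with AAAGCUG, miR-320b, miR-320c and miR-320d, were all higher and had their highest mean in CPC-EV, with log2 differences of 1.37, 1.77 and 2.41, and overlapped hiPSC-EV. Only 322 of the 367 tested miRNA were matched, so further members of a seed can be missing here. The seed UUGGCAC was divided: miR-1271-5p was lower, and miR-96-5p was higher with a log2 difference of 2.01 and a peak in hiPSC-EV.

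The miR-302/367 and miR-183/96/182 clusters followed the series rather than peaking in CPC-EV. All 9 tested members of the miR-302/367 cluster were higher than the mean of the other groups, against 14.2% of all tested miRNA, with a median log2 difference of 4.20 against 0.15, or 3.39 against 0.03 with groups at 0 set to 3 counts per library, and none was highest in CPC-EV. The cluster took 18.5 to 35.9% of miRNA counts in CPC-EV and 31.4 to 33.9% in hiPSC-EV. miR-302b-3p was at 166283, 171185 and 199241 CPM in hiPSC-EV, 67459, 73775 and 46299 in CPC-EV, 4959, 6269 and 3666 in CMi-EV and 295, 97.1 and 73.8 in CMm-EV. miR-302a-5p, from the other strand of a neighbouring hairpin, was at 99763, 221417 and 56208 CPM in CPC-EV and 101707, 133452 and 166621 in hiPSC-EV, which overlap. The miR-183/96/182 cluster of epithelial and sensory cells had 4 of 5 strands higher, against the same 14.2%, and none highest in CPC-EV, against 13.6% of all tested miRNA. The miR-371 to miR-373 cluster, also of pluripotent cells, had 2 of 3 strands higher and 2 of 3 highest in CPC-EV, read against the same shares. miR-371a-5p was at 1046, 1252 and 1026 CPM in CPC-EV and 677, 1110 and 1568 in hiPSC-EV, with the higher mean in hiPSC-EV. miR-372-3p was at 218, 451 and 106 CPM in CPC-EV and 217, 132 and 183 in hiPSC-EV, and miR-373-3p, which was not called, was at 17.3, 34.5 and 65.4 CPM in CPC-EV and 0, 23.1 and 46.5 in hiPSC-EV. miR-372-3p and miR-373-3p had their highest mean in CPC-EV, and all 3 overlapped hiPSC-EV after TMM scaling. The cluster's share of miRNA counts was highest in CPC-EV, at 0.203 to 0.215% against 0.109 to 0.154% in hiPSC-EV and at most 0.0186% later.

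The lower miRNA included families of differentiated cells, whose counts are read against 10.6% lower and 24.3% with the lowest mean in CPC-EV among all tested miRNA. Of 8 let-7 members, which restrain growth and pluripotency genes, 6 were lower with a median log2 difference of -2.46, and 4 had their lowest mean in CPC-EV. let-7a-5p was at 228, 270 and 237 CPM in CPC-EV, 1091, 1629 and 2317 in hiPSC-EV, 156, 161 and 97.8 in CMi-EV and 3796, 3644 and 6416 in CMm-EV, so its low point was in CMi-EV. The let-7 members together took 0.0449 to 0.0676% of miRNA counts in CPC-EV and 0.948 to 1.38% in CMm-EV, and the count of lower members was 3 without the second CPC-EV library. Of 10 strands of the muscle miRNA list 5 were lower and 3 had their lowest mean in CPC-EV, with a median of -3.84, or -3.18 with groups at 0 set to 3 counts per library. miR-100-5p, a differentiation-linked miRNA that dominates the later EV, was at 1613, 1591 and 2735 CPM in CPC-EV, 1758, 1569 and 2246 in hiPSC-EV, 225548, 165458 and 255065 in CMi-EV and 279630, 472091 and 502772 in CMm-EV. The levels of miR-100-5p in CPC-EV and hiPSC-EV overlapped.

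miRNA linked to endoderm, a cell type that mesoderm cultures can hold, were listed as markers of other cells. They took 1.08 to 1.16% of miRNA counts in CPC-EV, 0.16 to 0.189% in hiPSC-EV, 0.415 to 1.05% in CMi-EV and 0.145 to 0.236% in CMm-EV, so CPC-EV overlapped no other group. Of 7 tested 2 were higher and none lower, against 14.2 and 10.6% of all tested miRNA. miR-375-3p was one. miR-122-5p, the liver miRNA, was at 469, 1227 and 478 CPM in CPC-EV, 0, 0 and 1.28 in hiPSC-EV, 304, 269 and 2012 in CMi-EV and 625, 269 and 1303 in CMm-EV. It was called higher with a log2 difference of 3.26 (edgeR adjusted p = 0.0054), overlapped both later groups and had its highest mean in CMi-EV. No transcript of the endoderm and liver list, the endothelial list or the blood list reached the gencode filter. The endoderm and liver transcripts summed to 3, 60 and 112 counts in CPC-EV, 1, 1 and 2 in hiPSC-EV, 1, 0 and 48 in CMi-EV and 0, 11 and 0 in CMm-EV. As a share of gencode counts they took 0.000374 to 0.0153% in CPC-EV and up to 0.0219% in CMi-EV, so CPC-EV did not stand above CMi-EV. The part of other cell types in these levels was not tested. The miR-143/145, miR-199a/214 and miR-10/196 lists had no member higher, with 1 of 4, 0 of 2 and 0 of 2 lower.

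Among RNA classes, CPC-EV held more piRNA and a smaller share of miRNA. piRNA took 14.8, 11.9 and 16.2% of the counts of the 5 classes in CPC-EV and 2.03 to 10.2% elsewhere, without overlap. The mean was 14.3 ± 2.20% (SD, n = 3) against means of 8.16, 7.75 and 2.38% at day 0, day 15 and day 35, a difference of 8.21 points (exact permutation of the 12 labels, two-sided, p = 0.00909, the smallest that the 220 splits allow, adjusted over the 5 classes 0.0455). miRNA took 51.8, 58.1 and 50.1% in CPC-EV, 53.3 ± 4.18% (SD, n = 3), and 55.8% or more elsewhere, so 1 CPC-EV library overlapped the others. The difference to the mean of the others was -18.2 points (exact permutation p = 0.0182, adjusted 0.0455). Gencode transcripts took 24.7, 22.6 and 23.9% in CPC-EV, 9.12 points above the mean of the others (exact permutation p = 0.0273, adjusted 0.0455), with a highest other library at 24.4%. The shares of tRNA and circular RNA were 0.90 and -0.02 points away from the mean of the others (exact permutation p = 0.627 and 0.882). The differences kept their sign without each library in turn for miRNA, piRNA and gencode transcripts, but each passed after adjustment in 1 of 12 cases, that without the first hiPSC-EV library. Fewer splits remain in each case, fewest without a CPC-EV library, which raises the smallest p that can be reached. The cases without a CPC-EV library therefore say little about stability. Shares of 1 total move together, so these are not separate changes.

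**Figure D3:**
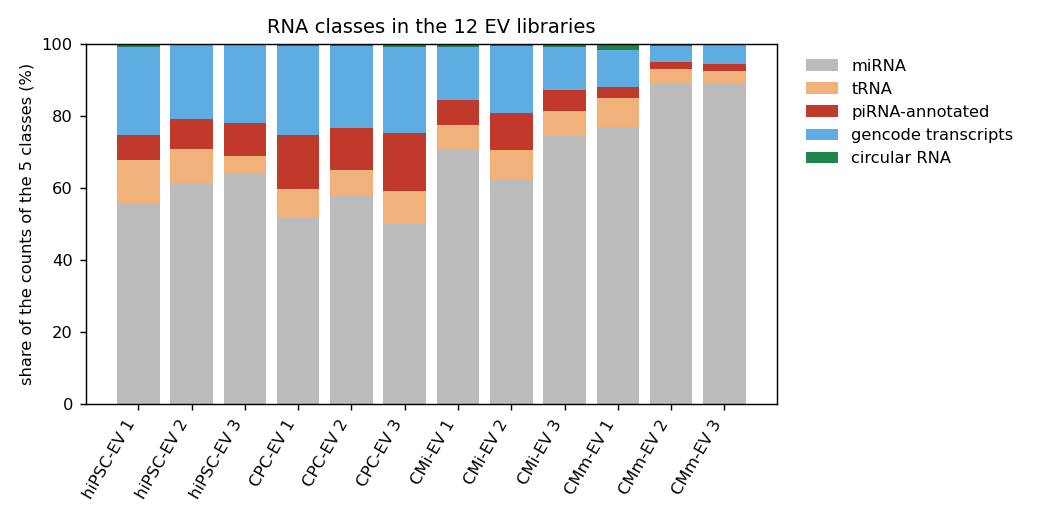
Share of each RNA class in the summed counts of the 5 classes, in percent, 1 stacked bar per library ordered by stage. The piRNA part is 11.9 to 16.2% in the CPC-EV bars and 2.03 to 10.2% in the others.

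Most of the piRNA-annotated counts came from 2 entries, whose origin as piRNA was not checked. piR-33043 took 8.75, 6.95 and 9.30% of the counts of the 5 classes in CPC-EV and 1.53 to 7.07% elsewhere. piR-33044 took 5.90, 4.79 and 6.73% in CPC-EV and 3.06% or less elsewhere, so piR-33044 lay above all other libraries and piR-33043 overlapped. The balance between them also differed: the ratio of piR-33044 to piR-33043 was 0.674, 0.688 and 0.724 in CPC-EV and at most 0.587 elsewhere. Within the class, 3 of 30 tested piRNA were higher (10.0%) and 0 lower by edgeR, with 1 lower at an unadjusted p of 0.05 and 0 with DESeq2, and in 2 (6.67%) all CPC-EV libraries lay above all others. The stricter call gave 0 in either direction by edgeR, at an unadjusted p of 0.05 and by DESeq2. Of the 29 piRNA that passed the filter in another group 2 were higher (6.90%). The third, piR-31108, passed it through CPC-EV alone, so its call was in part set by the filter, and it was not called with no filter or with DESeq2. piR-31108 was at 134, 172 and 103 CPM of piRNA counts in CPC-EV, 0, 39.1 and 29.4 in hiPSC-EV and 0 in all later libraries (edgeR adjusted p = 0.0121), at least 4.43-fold above CMi-EV and 4.29-fold above CMm-EV. piR-36173 was at 2279, 1853 and 2871 CPM in CPC-EV and overlapped hiPSC-EV. DESeq2 called 1 piRNA higher.

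On gencode transcripts, a feature is a gene and a transcript type, and values named for a gene here are of its protein-coding feature where it has one. Of 2975 tested features 783 were called higher (26.3%) and 33 lower (1.11%). The filter shaped this count, because 1179 features passed it in CPC-EV alone and 572 of the 783 were among these. Of the 1796 that passed in another group, 211 were higher (11.7%), and in 116 (6.46%) all CPC-EV libraries lay above all others. In 383 tested features (12.9%) all CPC-EV libraries lay above all others and in 5 (0.168%) below. The stricter call gave 0 features in either direction by edgeR, 92 higher and 11 lower at an unadjusted p of 0.05, and 18 higher and 0 lower with DESeq2. The count of higher features was 232 without the first hiPSC-EV library, 1321 without the last CPC-EV library and 100 with no filter. It was also 511 and 477 without the second and the last hiPSC-EV library, and the count of lower features lay between 7 (without the first or second hiPSC-EV library) and 57 (without the last CMi-EV library). Of the 783, 677 had their highest mean in CPC-EV, against 43.2% of all tested features. Of the same 783, 619 were at 0 in every CMm-EV library, the group with the least depth on gencode transcripts. The part of depth in these calls was not tested.

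Replication-dependent histone transcripts are made in S phase, when DNA is copied. They took 1.29, 1.52 and 1.10% of gencode counts in CPC-EV, 0.234, 0.315 and 0.155% in hiPSC-EV, 0.147, 0.0593 and 0.0420% in CMi-EV and 0.00457, 0.0286 and 0.0262% in CMm-EV. Each CPC-EV library lay above all others, and the CPC-EV mean was 11.6 times the mean of the other groups. The share of H4 transcripts was 0.682, 0.844 and 0.566% against at most 0.102% elsewhere. Histones H1, H2A, H2B and H3 had the same order, with the lowest CPC-EV libraries at 0.0401, 0.152, 0.142 and 0.165% and the highest others at 0.0228, 0.0727, 0.0542 and 0.0632%. Of 66 tested histone features 58 were higher and none lower, but 35 of the 66 passed the filter through CPC-EV alone. Of the 31 that passed in another group 26 were higher, against 11.7% of all such gencode features. Their median log2 difference was 4.58 against 0.87 for all such features, and with groups at 0 set to 3 counts per library it was 2.47 against -0.13. The count of 58 was 34 without the first hiPSC-EV library and 23 with no filter.

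HIST1H4E (chr6:26204610-26205021 in GRCh38.p14, named H4C5 in RefSeq), an intronless H4 gene, was at 2722, 3794 and 2247 CPM of gencode counts in CPC-EV, 152, 176 and 93 in hiPSC-EV, 225, 199 and 193 in CMi-EV and 4.27, 0 and 0 in CMm-EV. The lowest CPC-EV library was far above the highest of the others. The log2 difference was 6.40 (SE 0.63, edgeR adjusted p = 1.48e-05), and the stricter call had an unadjusted p of 0.000129 and an adjusted p of 0.385. HIST1H4C (chr6:26103933-26104337) was at 803, 542 and 455 CPM in CPC-EV, 152, 238 and 97 in hiPSC-EV, 143, 23.4 and 12.3 in CMi-EV and 0 in CMm-EV, at least 46.6-fold above CMm-EV. HIST1H2AE (chr6:26216921-26217437) was at 400, 229 and 300 CPM in CPC-EV, 152, 173 and 139 in hiPSC-EV and 0 in all later libraries. H4 genes are near-identical copies, so which copy a read came from is uncertain.

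Other genes of the cell cycle were also listed. Of 6 tested features of the cell-cycle list 2 were higher, against 26.3% of all tested, and both, the mitotic proteins AURKB and CENPF, passed the filter through CPC-EV alone. These were also highest in hiPSC-EV by their mean. Outside the list, ANLN, an actin-binding protein of the dividing cell, was at 227, 268 and 90.4 CPM in CPC-EV and 982, 718 and 294 in hiPSC-EV, and HMGA1, a chromatin protein of embryonic cells, was at 261, 81.8 and 191 CPM in CPC-EV and 608, 460 and 451 in hiPSC-EV. ANLN and HMGA1 were called higher than the mean of the other groups, were at 0 in all later libraries, and had their top in hiPSC-EV.

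Transcripts of cytosolic ribosomal proteins took 3.82, 4.20 and 3.12% of gencode counts in CPC-EV, 1.32, 1.06 and 0.658% in hiPSC-EV, 1.09, 0.805 and 0.794% in CMi-EV and 0.544, 0.664 and 0.475% in CMm-EV. Each CPC-EV library lay above all others, and the CPC-EV mean was 4.51 times the mean of the others. Proteins of the large subunit took 1.89 to 2.61% in CPC-EV and at most 0.777% elsewhere, and those of the small subunit 1.23 to 1.59% and at most 0.546%. Of 144 features that passed the filter in another group, 39 were higher (27.1%, against 11.7% of all such features) and in 48 (33.3%, against 6.46%) all CPC-EV libraries were highest. The median log2 difference of these 144 was 1.82 against 0.87 for all such features, and 1.70 against -0.13 with groups at 0 set to 3 counts per library. Over all 192 tested features 55 were higher, a share of 28.6% against 26.3% of all tested, and 18 without the first hiPSC-EV library and 16 with no filter.

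RPS7, of the small subunit (chr2:3575260-3580920), was at 1734, 2316 and 1666 CPM in CPC-EV, 431, 347 and 280 in hiPSC-EV, 259, 464 and 238 in CMi-EV and 4.27, 0 and 0 in CMm-EV. CPC-EV stood above all others, with a log2 difference of 5.13 (SE 0.65, edgeR adjusted p = 0.000189). RPL23 (chr17:38847860-38853721) and RPL6 (chr12:112405181-112418835), of the large subunit, were at 1196, 1427 and 811 CPM and at 965, 1063 and 774 CPM in CPC-EV and at most 389 and 187 CPM elsewhere. Their log2 differences were 3.37 (SE 0.82, edgeR adjusted p = 0.00737) and 3.22 (SE 0.79, edgeR adjusted p = 0.00749). Ribosomal protein genes have many processed pseudogenes that can take their reads.

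**Figure D4:**
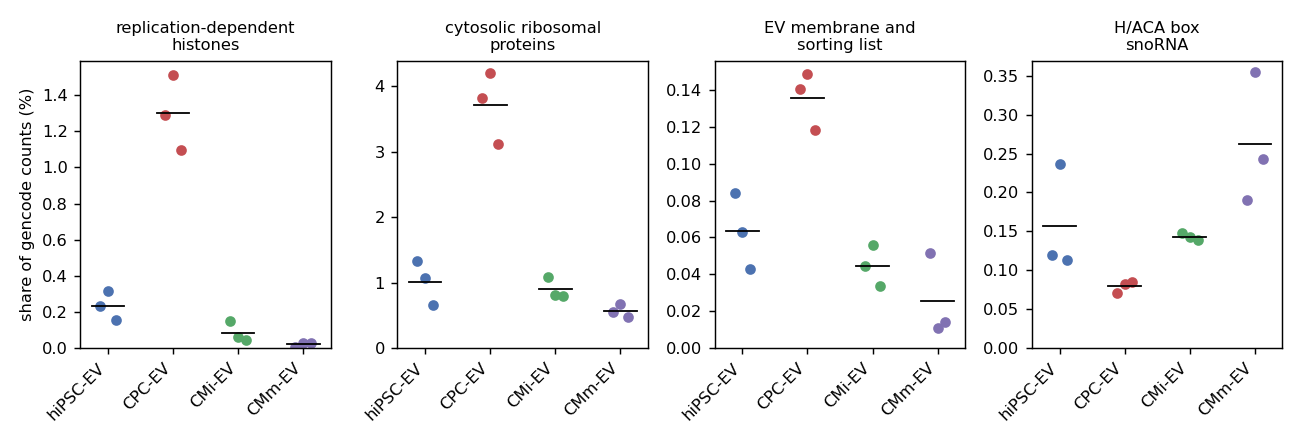
Share of 4 gene groups in the gencode counts of each library, in percent, 1 point per library and a line at the group mean. Histone, ribosomal protein and EV marker transcripts are highest in the 3 CPC-EV libraries (histones 1.10 to 1.52%), and H/ACA snoRNA take the smallest share of gencode counts there.

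Other abundant gencode transcripts above all libraries were named after their values were seen. Of those that follow, RAB13 and MYO10 passed the filter through CPC-EV alone, so their calls were in part set by it. ANP32B, an acidic histone chaperone (chr9:97983341-98015943), was at 1766, 1418 and 1042 CPM in CPC-EV, 0, 94.5 and 18.3 in hiPSC-EV, 45, 122 and 115 in CMi-EV and 29.9, 0 and 72.9 in CMm-EV, a log2 difference of 4.83 (SE 1.01, edgeR adjusted p = 0.00488). H3F3A, the replication-independent histone H3.3 (chr1:226061831-226072019), was at 1254, 1386 and 1102 CPM in CPC-EV and at most 422 elsewhere, with a log2 difference of 3.29 (SE 0.85, edgeR adjusted p = 0.00859). RAB13, a small GTPase whose mRNA is known to collect in cell protrusions (chr1:153981650-153990708), was at 195, 251 and 452 CPM in CPC-EV, 3.17, 16.4 and 15.7 in hiPSC-EV, 86.2, 60.9 and 8.2 in CMi-EV and 4.27, 0 and 0 in CMm-EV, a log2 difference of 4.94 (SE 1.01, edgeR adjusted p = 0.00488). MYO10, the motor of filopodia (chr5:16661907-16936288), was at 500, 442 and 181 CPM in CPC-EV and at most 47.2 elsewhere, at least 29.1-fold above CMm-EV (edgeR adjusted p = 0.00488). For all 4 the lowest CPC-EV library lay well above the highest of the others. FN1, fibronectin of the extracellular matrix, was at 553, 440 and 497 CPM in CPC-EV and at most 422 elsewhere, and its log2 difference of 2.41 was not called (SE 1.02, edgeR adjusted p = 0.0654).

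Transcripts of EV markers and EV-forming proteins took 0.141, 0.149 and 0.118% of gencode counts in CPC-EV and at most 0.0843% elsewhere. Every CPC-EV library lay above all others on this sum. Of 11 tested features 7 had their highest mean in CPC-EV, against 43.2% of all tested gencode features. The median log2 difference of the 11 was 1.33, under the 1.79 of all tested. With groups at 0 set to 3 counts per library it was above, at 1.28 against 0.68. Among the 9 that passed the filter in another group the median was 1.79, against 0.87 for all such features. By the test, edgeR called 0 in either direction, with 2 higher and 0 lower at an unadjusted p of 0.05 and 1 higher with DESeq2. CD63, CD9 and CD81, tetraspanins of the EV membrane, were not called.

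The lower gencode features included structured small RNA. H/ACA snoRNA, which guide pseudouridylation of ribosomal and spliceosomal RNA, took 0.0711, 0.0827 and 0.0842% of gencode counts in CPC-EV, 0.120, 0.237 and 0.113% in hiPSC-EV, 0.147, 0.143 and 0.138% in CMi-EV and 0.190, 0.355 and 0.243% in CMm-EV. All others lay above CPC-EV. This held only relative to gencode counts: as a share of the counts of the 5 classes H/ACA snoRNA took 0.0176 to 0.0201% in CPC-EV, 0.0246 to 0.0482% in hiPSC-EV, 0.0165 to 0.0264% in CMi-EV and 0.0125 to 0.0194% in CMm-EV, so that CPC-EV overlapped both later groups. Of 12 tested 2 were lower, against 1.11% of all tested. That count was 0 with no filter and 0 or 1 in 11 of 12 cases without each library in turn. Of the 12, 9 had their lowest mean in CPC-EV, against 13.1% of all tested gencode features. The median log2 difference of the 12 was -3.18 against 1.79 for all tested gencode features. With groups at 0 set to 3 counts per library it was -2.18 against 0.68. SNORD100, a C/D snoRNA, was at 128, 56.2 and 52.8 CPM in CPC-EV, 177, 725 and 474 in hiPSC-EV, 172, 103 and 680 in CMi-EV and 414, 321 and 888 in CMm-EV, a log2 difference of -2.44 (SE 0.70, edgeR adjusted p = 0.0372) with 1 CMi-EV library inside the CPC-EV range. The U1 spliceosomal RNA entry RNU1 was at 977, 1252 and 888 CPM in CPC-EV and 1205 to 6519 elsewhere, a log2 difference of -1.42 (SE 0.42, edgeR adjusted p = 0.0323), and overlapped CMi-EV.

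RNY4, a Y RNA abundant in EV, took 6.34, 5.71 and 5.41% of gencode counts in CPC-EV and 8.37 to 10.5% elsewhere, without overlap, and in CPM its log2 difference was -1.14 (SE 0.35, edgeR adjusted p = 0.0338). This too held only relative to gencode counts, since RNY4 took 1.29 to 1.57% of the counts of the 5 classes in CPC-EV, 1.94 to 2.29% in hiPSC-EV, 1.08 to 1.93% in CMi-EV and 0.432 to 0.874% in CMm-EV, which put CPC-EV above CMm-EV. RNY1 and RNY3 had other patterns. RNY1 took 14.9 to 16.2% in CPC-EV, 14.1 to 16.1% in hiPSC-EV and at most 8.21% later, and RNY3 took 1.74 to 2.35% in CPC-EV, at most 0.674% in hiPSC-EV and 2.00 to 2.47% in CMi-EV.

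WDR74 was the gencode feature that was called lower and below all libraries. It was at 800, 848 and 566 CPM in CPC-EV, 890, 2687 and 14384 in hiPSC-EV, 6909, 7105 and 1422 in CMi-EV and 2789, 7177 and 81896 in CMm-EV, a log2 difference of -3.73 (SE 0.85, edgeR adjusted p = 0.021). The groups were spread widely and the call was lost without the first hiPSC-EV library, with filterByExpr and with a filter on the mean level (added after seeing the data). That CPC-EV lay below all others held only after TMM scaling: WDR74 took 0.0718 to 0.103% of gencode counts in CPC-EV and 0.0915% in the first hiPSC-EV library, and as a share of the 5 classes it took 0.0171 to 0.0237% in CPC-EV and 0.0190% in the last CMi-EV library. WDR74 (chr11:62832905-62841809) overlaps the U2 spliceosomal RNA gene RNU2-2 (chr11:62841619-62841809), so its reads may be those of U2. DIRC2 (chr3:122795069-122881139, named SLC49A4 in RefSeq) was also called against the mean, and its level in CPC-EV overlapped hiPSC-EV: it was at 9.37, 6.25 and 17.2 CPM in CPC-EV, 6.34, 7.27 and 17 in hiPSC-EV, 1340, 1912 and 3566 in CMi-EV and 1990, 5334 and 5043 in CMm-EV.

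Other lists are given by their counts, read against 26.3% higher and 1.11% lower of all tested gencode features and 14.2 and 10.6% of all tested miRNA. Of 52 tested C/D snoRNA features 1 was higher and 3 were lower, of 36 Y RNA features 1 and 3, of 13 spliceosomal snRNA features 1 and 1, and of 8 imprinted genes' features 2 and 0. Of 17 tested features of heparan sulfate and matrix genes 1 was higher and none lower. The higher calls on the C/D snoRNA, spliceosomal snRNA, imprinted and matrix lists were all of features that passed the filter through CPC-EV alone, and of those that passed in another group none was higher. Among miRNA, 4 of 14 strands of the miR-106a-363 and miR-106b-25 clusters, 1 of 10 of the miR-17-92 cluster and 2 of 9 of the primate-specific C19MC cluster were higher and none lower. Of 9 strands of the miR-125, miR-99 and miR-100 families 3 were lower and none higher.

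By transcript type, nonsense-mediated decay transcripts took 1.92, 1.96 and 1.74% of gencode counts in CPC-EV and at most 1.59% elsewhere. The difference of 0.72 points had an exact permutation p of 0.00909, adjusted over 8 types 0.0727. Retained-intron transcripts took 3.51% in CPC-EV and 2.46% on average elsewhere (exact permutation p = 0.0182, adjusted 0.0727). Protein-coding transcripts took 20.3% against 17.3% (exact permutation p = 0.327) and snRNA 2.36% against 6.22% (exact permutation p = 0.0818). None of the 8 types passed after adjustment. Without the first CMm-EV library the differences of nonsense-mediated decay (0.78 points), retained-intron (1.18) and processed transcripts (0.71) did pass.

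Of 415 tested tRNA entries, which the files give by RNAcentral identifiers, 21 were higher (5.06%) and 2 lower (0.482%). Of these tRNA entries 15 passed the filter in CPC-EV alone, with 5 of the 21 among them, and of the 400 that passed in another group 16 were higher (4.00%). The highest mean was in CPC-EV for 16 of the 21, against 18.8% of all tested entries. All CPC-EV libraries lay above all others for 10 entries (2.41%) and below for 3 (0.723%). The stricter call gave 0 in either direction by edgeR and DESeq2, with 8 higher and 4 lower at an unadjusted p of 0.05. URS000063E4FD was at 4662, 6070 and 6429 CPM of tRNA counts in CPC-EV, 3535, 2018 and 1257 in hiPSC-EV, 619, 1454 and 1431 in CMi-EV and 608, 671 and 282 in CMm-EV, a log2 difference of 2.36 (SE 0.36, edgeR adjusted p = 0.00208). URS000047C79B was at 5685, 5699 and 9347 CPM in CPC-EV and 1402 to 4345 elsewhere, a log2 difference of 1.50 (SE 0.29, edgeR adjusted p = 0.0109). Both lay above all other libraries. Of the lower ones, URS000059900F was at 3.76, 0 and 0 CPM and URS000072F786 at 18.8, 0 and 0 CPM in CPC-EV, below all other libraries. Their log2 differences were -5.92 (SE 1.55, edgeR adjusted p = 0.0142) and -5.24 (SE 1.14, edgeR adjusted p = 0.0341). The calls of URS000059900F and URS000072F786 held in 8 and 6 of 12 cases without each library in turn, and the latter was lost with totals of all 5 classes and with a filter on the mean level. The count of higher entries was 0 without the second CPC-EV library, 2 without the second or last hiPSC-EV library or the last CPC-EV library, and 9 to 13 without the first CPC-EV, first CMi-EV or last CMi-EV library.

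Circular RNA were the class with the fewest counts. Of 263 tested 26 were higher (9.89%) and 3 lower (1.14%), and 18 (6.84%) lay above all other libraries and 3 (1.14%) below. The filter shaped this count too, since 43 passed it in CPC-EV alone and 13 of the 26 were among these, and of the 220 that passed in another group 13 were higher (5.91%). With a filter on the mean level, added after seeing the data, 3 were higher. The count of 26 was 15 without the last hiPSC-EV library, 60 without the first CPC-EV library and 93 without the last CPC-EV library. The stricter call gave 0 by edgeR, 7 higher and 2 lower at an unadjusted p of 0.05, and 1 higher and 0 lower with DESeq2. hsa_circ_0130087 was at 1772, 1399 and 3423 CPM of circular RNA counts in CPC-EV, 91, 0 and 42.1 in hiPSC-EV and 0 in all later libraries (edgeR adjusted p = 0.00109). It passed the filter through CPC-EV alone and rested on 173 counts in CPC-EV against 2 in all others, and was at least 11.5-fold above CMi-EV and 10.8-fold above CMm-EV. hsa_circ_0001586 was at 2375, 3929 and 4163 CPM in CPC-EV, overlapped hiPSC-EV at 2183, 1483 and 4004 CPM, and was at 0 later. Of the lower ones, hsa_circ_0062469 was at 37.7, 26.9 and 46.3 CPM in CPC-EV, from 3 counts in all, and 102 to 705 elsewhere. Its call held under 3 of 6 other scalings, filters and fits, being lost among others with DESeq2, and in 2 of 12 cases without each library in turn.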

How the data were processed

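Small RNA of EV isolated by density gradient was sequenced by the authors, who deposited per-library tables of expected counts made with exceRpt 4.6.2 against hg38, in which a read with several matches is divided among them. The submitters' processing notes also name edgeR 3.24.0. Here the deposited expected counts of all 5 RNA classes were rounded and tested with edgeR 4.0.16 (R 4.3.3) over all 12 libraries, scaled by TMM within each class. The contrast was CPC-EV against the mean of the 3 other group means. Features needed at least 5 CPM in all 3 libraries of any group, and outside miRNA also at least 5 counts. Of the same counts, tables of CPM by the authors were not used. p-values were adjusted by Benjamini-Hochberg over all tested features of a class. Shares were tested by exact permutation over libraries. DESeq2 1.42.0, other scalings and filters, a replicate block and leaving out each library were alternatives. The code was tested on simulated data. There the stricter call recovered 0% of changes of log2 2 and 3 in gencode transcripts, piRNA and circular RNA. In miRNA the stricter call recovered 12.9% of changes of log2 2 and 40.6% of log2 3, and in tRNA 20% and 43.6%. A low stricter count, or one of 0, thus does not show that little or nothing changed.

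The authors describe the libraries of a group as EV from independent cultures, and p-values measure the spread between these libraries. The members and lists were chosen with earlier results of these data known. In each class, named features were those called against each group by their distance to the nearest group, or, where fewer, those called against the mean by adjusted p, with the most abundant ones and up to 4 members of each list. Features named only because they lay outside the range of all other libraries were chosen after their values were seen. Of an all-zero group, a fold is a bound against 3 counts per library, which covers counting error only. No molecular identifiers are named in the sources used here.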

Additional observations from a re-analysis of the deposited data

How the results depend on the processing

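Counts of calls are given as above and under the mean in CPC-EV, with the stricter call against each group named as such. With library size alone, miRNA gave 91 and 24 with 0 stricter lower, and piRNA 1 higher. With totals of all 5 classes, miRNA gave 68 and 28, gencode transcripts 1587 and 13, piRNA 7 higher with 1 stricter, and tRNA and circular RNA 1 lower each. RLE scaling gave 20 gencode transcripts lower. With no filter, tRNA gave 55 and 21 with 6 stricter lower, gencode 100 and 6, circular RNA 54 higher, miRNA 3 stricter higher and piRNA 0. filterByExpr gave 0 stricter miRNA in either direction, 11 tRNA higher, gencode 283 and 3, and 0 circular RNA lower. A filter on the mean, added after seeing the data, gave 0 stricter miRNA higher, tRNA 5 and 1, piRNA 0, gencode 58 and 8 with 1 stricter, and circular RNA 3 and 0. Counts summed per gene symbol, also added, gave gencode 519 and 21. DESeq2 gave 4 and 7 stricter miRNA, tRNA 13 and 8, piRNA 1, gencode 55 lower with 18 stricter higher, and circular RNA 7 lower with 1 stricter higher. With the 9 other libraries as 1 group, miRNA gave 3 and 3, tRNA 0 and 0, piRNA 0, gencode 38 and 1, and circular RNA 7 and 0. miR-146b-5p, miR-654-3p and miR-370-3p stayed higher and miR-21-5p, miR-378a-3p and miR-30a-5p lower there, and the log2 differences of miR-182-5p (-0.33), miR-302c-5p (-0.0243), miR-200c-3p (-0.60), miR-183-5p (-0.54), URS000063FB43 (-0.29) and ANLN (-0.18) turned.

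Replicate numbers did not pair the libraries: the correlation of same-numbered libraries' deviations over 18 pairs lay between -0.121 and 0.0989 for miRNA, -0.240 and 0.249 for tRNA, -0.404 and 0.573 for piRNA, -0.0717 and 0.0646 for gencode transcripts and -0.239 and 0.181 for circular RNA. The replicate block gave miRNA 37 and 29 with 0 stricter higher (miR-146b-5p lost), piRNA 0, 18 gencode transcripts lower and 0 circular RNA lower (hsa_circ_0062469 lost). With it miR-1908-3p, miR-7706, miR-378i and piR-31108 were not called.

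Leaving out each library in turn gave 39 to 63 miRNA higher and 21 to 37 lower, with 0 to 1 and 0 to 4 stricter, tRNA 0 to 28 and 0 to 9, piRNA 1 to 7, gencode 232 to 1321 and 7 to 57, and circular RNA 15 to 93 and 0 to 4 with 0 to 8 stricter higher. Differences in share were -20.6 to -16.0 points for miRNA, 7.25 to 9.42 for piRNA and 7.86 to 10.3 for gencode. These 3 no longer passed in 11 of 12 cases each, where fewer splits also raise the smallest p. The difference was -0.072 to 0.10 for circular RNA, -3.08 to 0.18 for misc_RNA and 0.66 to 0.79 for nonsense-mediated decay. It was 0.44 to 0.71 for processed transcripts, 0.92 to 1.18 for retained introns and -6.68 to -3.91 for the 10 most abundant miRNA. The number of miRNA at equal depth differed by -34.3 to 27.99 against -10.4, and by 6.49 at 0.5 of the depth. Without the most abundant gencode feature the differences of nonsense-mediated decay (1.06) and retained-intron transcripts (1.57 points) passed after adjustment, as did those of both (0.776 and 1.18) and of processed transcripts (0.711) without the first CMm-EV library. The cause of these changes was not tested.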

Other observations

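The H19 non-coding RNA, imprinted like the 14q32 region but on chromosome 11, was at 31.2, 35.6 and 63.5 CPM of gencode counts in CPC-EV, 0 in every hiPSC-EV and CMm-EV library and 0, 16.4 and 201 in CMi-EV, so CPC-EV and CMi-EV overlapped. miR-130b-5p was at 5273, 5575 and 5141 CPM in CPC-EV, 4000, 5270 and 3329 in hiPSC-EV, 3653, 4116 and 3380 in CMi-EV and 712, 1016 and 992 in CMm-EV. Its log2 difference of 1.14 was called (SE 0.18, edgeR adjusted p = 0.00049), and 1 hiPSC-EV library lay inside the CPC-EV range. The number of miRNA expected at an equal depth of 703415 counts was 405 in CPC-EV and 416 on average in the other groups (exact permutation p = 0.945), so CPC-EV did not hold a detectably different number of miRNA.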
